A study of Homo sapiens with 8 samples.

Results

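The 9 genes described here, HLA-B, HLA-C, HLA-E, B2M, TAP1, TAP2, TAPBP, ERAP1 and NLRC5, make and load MHC class I molecules. They were chosen by symbol, and all 9 had at least 1 transcript among the 35113 genes that could be named in the deposited tables. MHC class I molecules carry short peptides made inside a cell to its surface, where CD8+ T cells inspect them. A class I molecule is a heavy chain, such as HLA-B, HLA-C or HLA-E, paired with beta-2-microglobulin, which is the product of B2M. Peptides cut in the cytosol are pumped into the endoplasmic reticulum by the transporter made of TAP1 and TAP2, are trimmed there by the aminopeptidase ERAP1, and are loaded onto heavy chains held at the transporter by tapasin, the product of TAPBP. NLRC5 is the transactivator of class I genes, and interferon raises the whole pathway. Loss of this pathway is a known route by which head and neck tumours become hard for T cells to see.

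RNA was sequenced from 4 groups of established head and neck squamous cell carcinoma cells, 2 libraries from each group. The HPV+ resistant group is a single-cell clone of UDSCC2 (HPV+ parental), and the HPV- resistant group is a single-cell clone of UPCISCC89 (HPV- parental). Both clones came from long-term cisplatin, with a higher dose for the HPV+ line, and were then grown in medium without cisplatin, so each resistant group is 1 clone and a change in it cannot be told apart from the choice of that clone. HPV status, dose and line differ together between the HPV+ and HPV- groups and cannot be told apart either. In bulk RNA, fewer cells that express a gene and less RNA per cell cannot be told apart. Whether a group's 2 libraries stem from different cultures is stated nowhere, so the p-values reflect the spread between libraries alone, and that spread may be technical.

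The libraries held 20250246 to 27341284 read pairs. All 8 squamous epithelium markers reached 1 CPM (counts scaled to library size) on average in every group. The 4 endothelial markers summed to at most 0.453 CPM. The 7 leukocyte markers summed to 10.6 to 13.4 CPM in HPV+ resistant, 16.6 to 18.7 CPM in HPV+ parental, 44.1 to 72.2 CPM in HPV- resistant and 153 to 157 CPM in HPV- parental libraries, mostly from CD68, while the defining marker PTPRC did not exceed 0.18 CPM in any library. The 5 fibroblast markers summed to 92.6 to 141 CPM in HPV+ resistant and 348 to 415 CPM in HPV+ parental libraries, mostly from LUM and DCN, and to at most 12.3 CPM in HPV- libraries. The part of these genes in the results was not tested.

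Of the 9 genes, 6 lie in the MHC region of chromosome 6 (here chr6:28503296-33457544, GRCh38), where the deposited values carry more limits than elsewhere. The deposited tables list 52.7% of the annotated transcripts of the 183 coding genes there, against 91.0% over the rest of the genome. Of the 173 coding genes of the region with a listed transcript, 47 were at 0 in all 8 libraries, among them PPP1R11, EHMT2, VARS1 and GNL1, which cells in general use. Another 5 genes (POLR1H, PHF1, TAP2, AGPAT1 and WDR46) were at 0 in all HPV+ libraries and above 100 counts in every HPV- library. Among coding genes averaging at least 100 counts over a group's 2 libraries, these libraries differed more than 4-fold in 6.25 to 10.3% in the region (3 or 4 of 39 to 48 genes), against 0.104 to 0.274% elsewhere. Transcripts that could not be matched to a gene held 4.33 to 5.13% of the read pairs, and whether reads of these 6 genes are among them was not tested. A 0 in the MHC region is therefore given below as listed at 0, without a fold.

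Each of the 6 is covered differently. HLA-B (chr6:31353872-31367067, minus strand) had 7 of 13 annotated transcripts listed, HLA-C (chr6:31268749-31272130, minus strand) had 9 of 9 and HLA-E (chr6:30489509-30494194, plus strand) had 1 of 3. TAP1 (chr6:32845209-32853816, minus strand) had 4 of 11, TAP2 (chr6:32821833-32838739, minus strand) 2 of 9 and TAPBP (chr6:33299694-33314284, minus strand) 5 of 26. Outside the region, B2M (chr15:44711358-44718851, plus strand) had 5 of 12, ERAP1 (chr5:96760810-96808100, minus strand) 9 of 9 and NLRC5 (chr16:56989485-57083531, plus strand) 28 of 29, the missing one being its reference transcript.

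**Figure D1:**
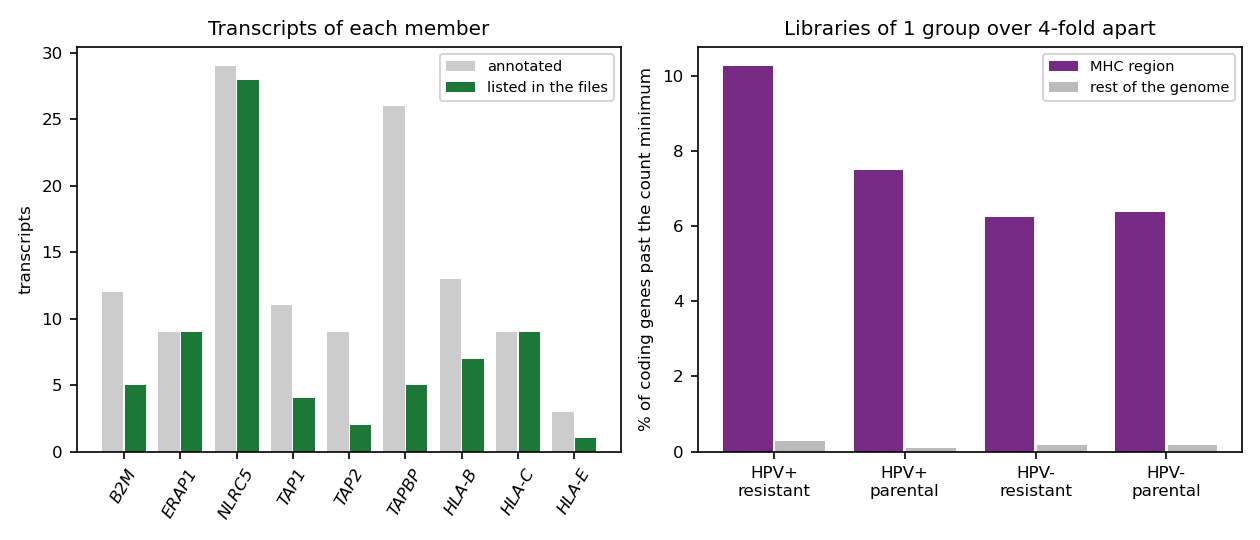
Left, the number of transcripts annotated (grey) and listed in the deposited tables (green) for each of the 9 genes. Right, the percentage of coding genes averaging at least 100 counts whose 2 libraries differed more than 4-fold in each group, for the MHC region (purple, 6.25 to 10.3% of 39 to 48 genes) and for the rest of the genome (grey, 0.104 to 0.274%).

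Class I heavy chains also resemble each other closely, which bears on how reads are shared among them. Exon 4, which encodes the alpha 3 domain that B2M and CD8 contact, was 93.5% identical between HLA-B and HLA-C, 92.0% between HLA-B and HLA-E and 92.8% between HLA-C and HLA-E over 276 bases of the GRCh38 reference. The first 120 bases of the exon are shown to let the likeness be seen, with capitals at the 6 positions where the 3 genes differ. The exons lie at chr6:31355317-31355592 (HLA-B), chr6:31270210-31270485 (HLA-C) and chr6:30491137-30491412 (HLA-E).
HLA-B: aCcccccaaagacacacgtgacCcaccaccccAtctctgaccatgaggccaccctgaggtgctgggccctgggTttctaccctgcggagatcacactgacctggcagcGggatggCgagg
HLA-C: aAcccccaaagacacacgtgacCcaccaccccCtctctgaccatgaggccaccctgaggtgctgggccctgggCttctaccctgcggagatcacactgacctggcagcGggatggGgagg
HLA-E: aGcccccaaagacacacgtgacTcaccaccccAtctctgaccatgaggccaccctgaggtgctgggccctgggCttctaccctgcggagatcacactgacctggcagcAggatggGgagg
Of the 31-base words in the reference transcript, other genes shared 32.0% for HLA-B, 19.6% for HLA-C, 13.9% for HLA-E, 22.6% for TAP1, 35.5% for TAP2, 45.1% for TAPBP and 11.6% for ERAP1. B2M and NLRC5 shared none. GRCh38 also carries 7 alternate haplotypes of the region, on which the TAP1 transcript had 5 identical copies, HLA-E had 2, TAPBP had 1, and HLA-B, HLA-C and TAP2 had none.

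In the HPV- line, ERAP1, TAPBP and HLA-B rose in the resistant clone, while B2M, TAP1 and NLRC5 did not pass the test. A gene was called when edgeR's quasi-likelihood test gave it an adjusted p under 0.05 together with a change of more than 1 on the log2 scale. By that rule 3 of the 7 genes tested were called, all higher, beside 11.3% of all 15221 genes in either direction and 6.06% called higher. HLA-C and HLA-E had too few counts to be tested. The median log2 fold change of the 7 was 0.55, against 0.04 over all genes. Only 1 of the 3 calls, ERAP1, lies outside the MHC region. In the same clone the 8 squamous markers together were lower, at 3840 and 4940 CPM in HPV- resistant libraries against 16657 and 17790 CPM in HPV- parental libraries, a sum made up mostly of KRT5, KRT14 and KRT17. Of the 8, 5 fell (these 3, PKP1 and SFN), CDH1 rose (log2 1.01, edgeR adjusted p = 0.00203) and TP63 and EPCAM were not called. The part of this in the results was not tested.

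ERAP1, the aminopeptidase that trims peptides to the length class I molecules hold, lies outside the MHC region and has every annotated transcript listed. It had 75.4 and 92.4 CPM in HPV- resistant libraries, against 29.3 and 34.0 CPM in HPV- parental libraries. The groups did not overlap, as in 61.2% of all genes tested, and ERAP1 was 2.65-fold higher in the clone (log2 1.41 ± 0.16 SE, n = 2 each, edgeR adjusted p = 0.000349). Its 2 main transcripts both had more reads in the clone. The reference transcript ENST00000443439.7 had 817 and 959 estimated read pairs in HPV- resistant libraries, against 352 and 496 in HPV- parental libraries. The longer transcript ENST00000296754.7 had 676 and 880 in HPV- resistant libraries, against 182 and 244 in HPV- parental libraries, so it made up 45.1 and 47.5% of ERAP1 reads in the clone, against 33.1 and 32.3% in parental cells. Neighbours were taken without the 9 genes and the genes of the pathway and marker lists. The 10 nearest tested genes left on each side of ERAP1 had a median log2 fold change of 0.14. Of these 20 genes, 3 were above 1 and 1 was below -1. ERAP2, among the genes left out, had 16.6 and 15.7 CPM in HPV- resistant libraries, against 7.64 and 6.72 CPM in HPV- parental libraries. It was not called.

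B2M, the light chain of every class I molecule, was the most abundant of the 9. It had 1681 and 1631 CPM in HPV- resistant libraries, against 1328 and 926 CPM in HPV- parental libraries. Every resistant library lay above every parental one, but the parental libraries differed widely and the change of log2 0.55 ± 0.21 SE did not pass (edgeR adjusted p = 0.0747). It was log2 0.83 without replicate 1 of the HPV- parental cells (edgeR adjusted p = 0.0156) and 0.25 without replicate 2 of them (edgeR adjusted p = 0.404). NLRC5, the class I transactivator, had 36.8 and 43.3 CPM in HPV- resistant libraries, against 38.6 and 35.2 CPM in HPV- parental libraries. These ranges overlapped, and the log2 difference was 0.12 ± 0.17 SE (edgeR adjusted p = 0.634). TAP1, a transporter subunit, had 73.9 and 112.8 CPM in HPV- resistant libraries, against 90.9 and 68.9 CPM in HPV- parental libraries, and these ranges overlapped too (log2 0.23 ± 0.21 SE, edgeR adjusted p = 0.454).

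TAPBP had 144.7 and 174.3 CPM in HPV- resistant libraries, against 53.4 and 52.1 CPM in HPV- parental libraries, a 3.03-fold higher level (log2 1.60 ± 0.24 SE, edgeR adjusted p = 0.00143). HLA-B, a classical heavy chain, had 40.9 and 31.4 CPM in HPV- resistant libraries, against 7.64 and 7.21 CPM in HPV- parental libraries, 4.86-fold higher (log2 2.28 ± 0.25 SE, edgeR adjusted p = 0.000317). Both sets of libraries were separate for each gene. Of the 20 neighbours of HLA-B, 5 were above log2 1 and 0 below -1 (median 0.30). Of the 20 neighbours of TAPBP, 2 were above log2 1 and 2 below -1 (median -0.17). For HLA-B, 88.8 and 88.9% of the reads in the clone, against 75.3 and 79.4% in parental cells, were given to the retained-intron transcript ENST00000481849.6 of 753 bases, while the reference transcript had reads in 1 library of the 8, so this value is not a level of HLA-B mRNA as such. TAP2, the other transporter subunit, had 56.0 and 60.9 CPM in HPV- resistant libraries, against 92.2 and 92.4 CPM in HPV- parental libraries. It was lower by less than the fold that the call asks for (log2 -0.66 ± 0.15 SE, edgeR adjusted p = 0.0123).

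In the HPV+ line none of the 7 genes tested was called, beside 8.0% of all genes. At an unadjusted p under 0.05 in edgeR there were 3, NLRC5, TAP1 and TAPBP, all with lower values in the clone, beside 33.0% of all genes. DESeq2 called 1, TAPBP, beside 8.34% of its genes. The median log2 fold change of the 7 was -0.47, against 0.00 over all genes, and TAP2 entered it with all counts at 0.

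NLRC5 had 11.4 and 9.53 CPM in HPV+ resistant libraries, against 14.8 and 14.1 CPM in HPV+ parental libraries. The libraries were separate, as in 67.8% of all genes, but the difference of log2 -0.47 ± 0.17 SE did not pass (edgeR adjusted p = 0.0824). TAP1 had 15.2 and 17.9 CPM in HPV+ resistant libraries, against 25.1 and 25.4 CPM in HPV+ parental libraries (log2 -0.61 ± 0.22 SE, edgeR adjusted p = 0.0751). B2M had 387 and 274 CPM in HPV+ resistant libraries, against 423 and 426 CPM in HPV+ parental libraries (log2 -0.36 ± 0.21 SE, edgeR adjusted p = 0.263), which became -0.63 without replicate 1 and -0.13 without replicate 2 of the HPV+ resistant cells. Each of these genes was lower in both resistant libraries than in either parental library. ERAP1 had 17.6 and 15.9 CPM in HPV+ resistant libraries, against 17.0 and 18.6 CPM in HPV+ parental libraries, and here the libraries overlapped (log2 -0.09 ± 0.16 SE, edgeR adjusted p = 0.750).

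The remaining genes were close to the floor in HPV+ cells. TAPBP had 14 and 9 counts in HPV+ resistant libraries, against 15 and 41 counts in HPV+ parental libraries (log2 -1.24 ± 0.46 SE, edgeR adjusted p = 0.0883). Without replicate 1 of the HPV+ parental cells it was called, at log2 -1.78 with an edgeR adjusted p of 0.0220, and without replicate 2 of them it was -0.39 (edgeR adjusted p = 0.677). HLA-B had 4 and 10 counts in HPV+ resistant libraries, against 12 and 15 counts in HPV+ parental libraries, all of them on 1 retained-intron transcript, ENST00000474381.2 (log2 -0.91 ± 0.43 SE, edgeR adjusted p = 0.170). TAP2 was listed at 0 in all 4 HPV+ libraries. HLA-C had 1 and 0 counts in HPV+ resistant libraries, 1 and 3 in HPV+ parental libraries, 0 and 3 in HPV- resistant libraries and 0 in both HPV- parental libraries. HLA-E was listed at 0 in all 8 libraries, and in terms of counting alone a 0 allows up to 0.110 to 0.148 CPM, depending on the library. Since other genes of the region that cells use were also listed at 0, these zeros cannot be told apart from reads given to other transcripts. For TAP2, the 35.5% of 31-base words shared with other genes occur in ENSG00000250264, a gene of the same region. It had 70 and 37 counts in HPV+ resistant and 133 and 176 in HPV+ parental libraries. In HPV- libraries it had 291 and 178 counts (resistant) and 239 and 426 (parental). Whether any of these reads stem from TAP2 was not tested.

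**Figure D2:**
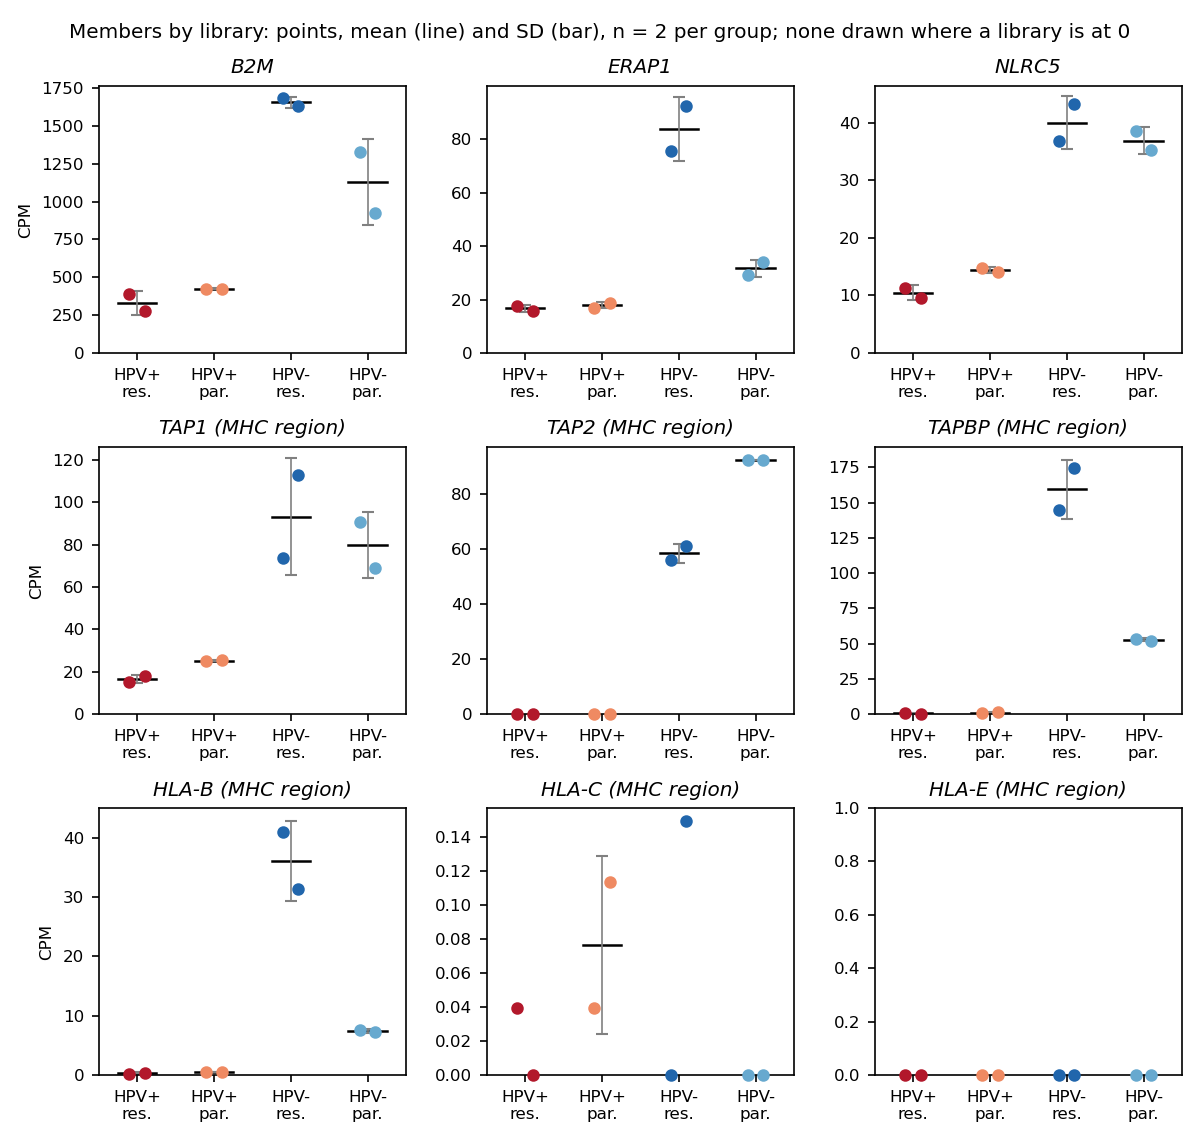
CPM of each of the 9 genes in the 8 libraries (points), with the group mean (line) and SD (bar, n = 2) where both libraries were above 0, ordered as HPV+ resistant, HPV+ parental, HPV- resistant and HPV- parental. ERAP1 stands at 75.4 and 92.4 CPM in the HPV- clone and between 15.9 and 34.0 CPM in the other 6 libraries. All 7 tested genes separate HPV+ from HPV- parental libraries, as do 79.5% of all genes tested. All 7 also separate the libraries of the 2 clones, as do 80.9% of all genes.

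The changes in the 2 clones were then compared with each other, as the HPV+ change minus the HPV- change. By the same rule 3 of 7 genes were called, all in the negative direction, beside 11.7% of all genes in either direction and 6.57% in the negative one. ERAP1 differed by log2 -1.49 ± 0.23 SE (edgeR adjusted p = 0.00201), with changes of -0.09 in the HPV+ clone and 1.41 in the HPV- clone. HLA-B differed by -3.19 ± 0.50 SE (edgeR adjusted p = 0.00234) and TAPBP by -2.84 ± 0.51 SE (edgeR adjusted p = 0.00518), each from the few HPV+ counts given above. For B2M the difference was -0.91 ± 0.30 SE (edgeR adjusted p = 0.0600), for TAP1 -0.84 ± 0.30 SE (edgeR adjusted p = 0.0840) and for NLRC5 -0.59 ± 0.24 SE (edgeR adjusted p = 0.121). B2M was called without replicate 1 of the HPV- parental cells (-1.18) or replicate 1 of the HPV+ resistant cells (-1.18), and was as small as -0.61 without replicate 2 of the HPV- parental cells. TAP1 was called without replicate 1 of the HPV- parental cells (-1.03) or replicate 1 of the HPV- resistant cells (-1.11), and was as small as -0.50 without replicate 2 of the HPV- resistant cells.

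**Figure D3:**
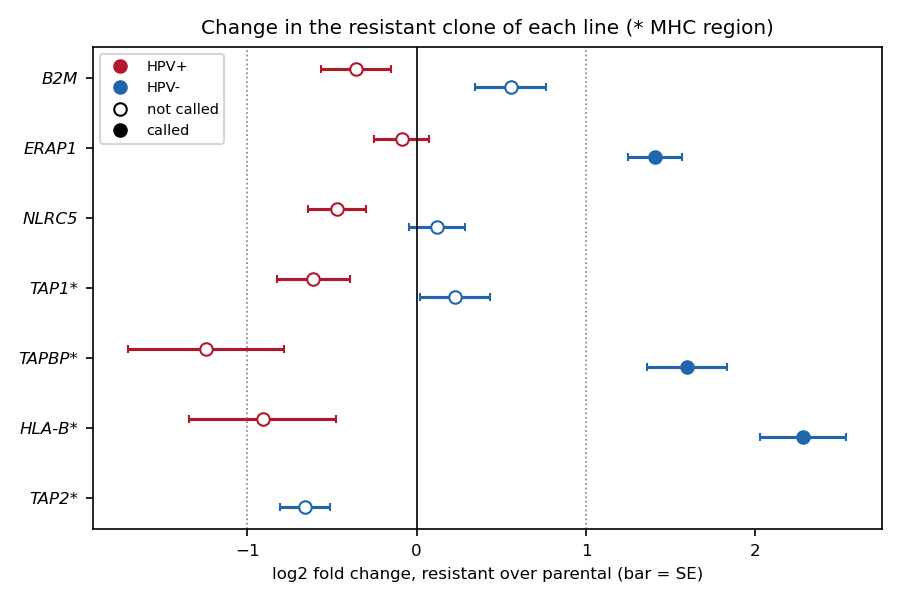
Log2 fold change of each tested gene in the resistant clone over its parental line, with its SE, for the HPV+ (red) and HPV- (blue) lines. Filled points were called, dotted lines mark the fold threshold of 1, an asterisk marks the MHC region, and TAP2 has no HPV+ point because it was listed at 0. The filled points are ERAP1 (1.41), TAPBP (1.60) and HLA-B (2.28) in the HPV- line.

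Set against each other, the lines differed in more of these genes than either clone did from its parent. HPV+ parental cells were lower than HPV- parental cells in 6 of the 7 genes, beside 37.0% of all genes called and 19.3% called lower. The HPV+ clone was lower than the HPV- clone in 7 of 7, beside 36.0% of all genes called in either direction and 3049 of 15221 called lower. Of the 3 genes outside the MHC region, 2 were among the first set of calls and all 3 among the second. B2M averaged 424 ± 2.09 CPM in HPV+ parental cells and 1127 ± 284 CPM in HPV- parental cells (SD, n = 2 each), a 2.66-fold lower level (log2 -1.41 ± 0.21 SE, edgeR adjusted p = 0.000235). NLRC5 averaged 14.5 ± 0.492 CPM in HPV+ parental cells and 36.9 ± 2.37 CPM in HPV- parental cells, 2.55-fold lower (log2 -1.35 ± 0.17 SE, edgeR adjusted p = 6.58e-05). TAP1 averaged 25.3 ± 0.237 CPM in HPV+ parental cells and 79.9 ± 15.5 CPM in HPV- parental cells, 3.16-fold lower (log2 -1.66 ± 0.22 SE, edgeR adjusted p = 8.72e-05). ERAP1 averaged 17.8 ± 1.13 CPM in HPV+ parental cells and 31.7 ± 3.30 CPM in HPV- parental cells, which passed the adjusted p but not the fold (log2 -0.83 ± 0.16 SE, edgeR adjusted p = 0.00126).

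Between the clones, ERAP1 was lower in HPV+ resistant cells, at 16.8 ± 1.24 CPM against 83.9 ± 12 CPM in HPV- resistant cells (SD, n = 2 each, log2 -2.32 ± 0.17 SE, edgeR adjusted p = 1.16e-06). B2M was also lower, at 331 ± 79.9 CPM in HPV+ resistant cells against 1656 ± 35.7 CPM in HPV- resistant cells (log2 -2.32 ± 0.22 SE, edgeR adjusted p = 8.71e-06). NLRC5 was 3.83-fold lower and TAP1 5.64-fold lower in HPV+ resistant cells (edgeR adjusted p = 5.87e-06 and 6.24e-06). HLA-B, TAPBP and TAP2 were also called lower in both comparisons, but with 4 to 15, 9 to 41 and 0 counts in the HPV+ libraries, and in a region where other genes read 0 in this line alone.

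For B2M, ERAP1, NLRC5 and TAP1 the order of the group means was the same, with HPV- resistant cells highest, then HPV- parental, HPV+ parental and HPV+ resistant cells. HLA-B and TAPBP had this order too, with few HPV+ counts. TAP2 did not, with 92.3 CPM in HPV- parental and 58.5 CPM in HPV- resistant cells. Among neighbours in that order, the HPV- and HPV+ parental cells differed for all 4 genes at an adjusted p under 0.05. Without a minimum fold, 4256 genes higher and 4565 lower of all 15221 also passed between these parents. The HPV- clone and its parent differed at that level for ERAP1 only, beside 1942 genes higher and 2139 lower. The HPV+ clone and its parent did so for none of the 4, beside 1164 genes higher and 1595 lower. Per length, as TPM (transcript abundance scaled for length and depth), B2M led among these 4 in the HPV- clone with 2621 ± 81.0 TPM, followed by TAP1 with 41.6 ± 12.2 TPM, ERAP1 with 19.5 ± 3.28 TPM and NLRC5 with 17.0 ± 1.13 TPM. On that scale NLRC5 averaged 17.0 ± 1.13 TPM in HPV- resistant cells and 11.0 ± 0.101 TPM in HPV- parental cells, a log2 ratio of 0.62 that the CPM do not show (0.12), and an offset for transcript length in the edgeR fit gave 0.46 (adjusted p = 0.235). NLRC5 reads were spread over 26 transcripts, with 50.3 to 88.2% on the leading one.

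Other genes of the pathway were read from 6 lists of 53 genes, of which 47 were tested. In the HPV- clone 3 of them rose (MR1, CIITA and IRF1) and 1 fell (THOP1). In the HPV+ clone 1 rose (JAK1) and 2 fell (TAPBPL and PSMB10). The difference of the changes was called for 6, all negative. These calls are 8.51% of the 47 in the HPV- clone, 6.38% in the HPV+ clone and 12.8% for the difference, near or below the 11.3%, 8.0% and 11.7% of all genes. PSME1, PSME2 and IRF9 had no matched transcript and were not analysed here.

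Among the other class I genes, MR1, which presents vitamin metabolites to MAIT cells, was the only one of 5 tested to be called in the HPV- clone. It had 105.7 and 117.8 CPM in HPV- resistant libraries, against 48.3 and 49.5 CPM in HPV- parental libraries (log2 1.19 ± 0.13 SE, edgeR adjusted p = 0.000316), but with the offset for transcript length it changed by log2 0.55. In HPV+ cells MR1 had 27.7 and 25.3 CPM in the clone, against 31.1 and 32.5 CPM in the parent. The median log2 fold change of these 5 genes was 0.52 in the HPV- clone and -0.73 in the HPV+ clone. HFE is the class I-like regulator of iron uptake. Its change in the clone differed between the lines (log2 -1.36 ± 0.23 SE, edgeR adjusted p = 0.00342), though it was called in neither clone. With the length offset the adjusted p of that difference was 0.0775.

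Of the 9 loading partners, none was called in the HPV- clone and 1 in the HPV+ clone. TAPBPL encodes TAPBPR, a relative of tapasin that edits the peptides class I molecules hold, and lies outside the MHC region. It had 1.74 and 0.89 CPM in HPV+ resistant libraries, against 6.92 and 6.31 CPM in HPV+ parental libraries, 5.01-fold lower (log2 -2.32 ± 0.31 SE, edgeR adjusted p = 0.00135). In HPV- cells it had 71.2 and 82.0 CPM in the clone, against 55.7 and 36.8 CPM in the parent, and its change differed between the lines by log2 -3.05 ± 0.40 SE (edgeR adjusted p = 0.00105). ERAP2, the partner trimming enzyme of ERAP1, had 0.95 and 0.19 CPM in HPV+ resistant libraries against 16.6 and 15.7 CPM in HPV- resistant libraries, and was called lower in HPV+ cells between the parents as well. The chaperone CANX went the other way, 3.51-fold higher in HPV+ than in HPV- parental cells (edgeR adjusted p = 2.07e-05).

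Of the 3 immunoproteasome genes tested, PSMB10 alone was called within a line. It had 22.3 and 19.1 CPM in HPV+ resistant libraries, against 59.2 and 55.1 CPM in HPV+ parental libraries (log2 -1.47 ± 0.29 SE, edgeR adjusted p = 0.0104). Without replicate 1 of the HPV+ parental cells the adjusted p was 0.0680, and without replicate 2 of the HPV+ resistant cells it was 0.0754. PSMB8 and PSMB9 lie in the MHC region, and PSMB9 had 0.31 CPM or less in every HPV+ library. Of the 6 cytosolic peptidases only THOP1, which destroys peptides, was called, lower in the HPV- clone (log2 -1.06 ± 0.20 SE, edgeR adjusted p = 0.00412). That call was lost without replicate 1 of the HPV- parental cells (log2 -0.75) or replicate 1 of the HPV- resistant cells (log2 -0.94), and with upper-quartile factors (log2 -0.99).

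The enhanceosome list holds the RFX, NFY and CREB factors that NLRC5 works with, and CIITA, the transactivator of class II genes. CIITA was the only 1 of 9 to be called in a clone. It had 20.7 and 19.4 CPM in HPV- resistant libraries, against 1.98 and 2.43 CPM in HPV- parental libraries, 9.04-fold higher (log2 3.18 ± 0.33 SE, edgeR adjusted p = 0.00022). In HPV+ cells it had 3.49 and 2.01 CPM in the clone, against 1.77 and 2.45 CPM in the parent. CD74, the class II invariant chain and also 1 of the leukocyte markers, had 8.86 and 4.59 CPM in HPV- resistant libraries against 1.23 and 1.67 CPM in HPV- parental libraries, while PTPRC was at 0 in both resistant libraries.

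Of the 15 interferon and NF-kappaB drivers tested, IRF1 was the only one called in the HPV- clone. IRF1 is the transcription factor through which interferon-gamma acts on many class I genes. It had 87.3 and 93.1 CPM in HPV- resistant libraries, against 36.5 and 36.6 CPM in HPV- parental libraries, 2.47-fold higher (log2 1.30 ± 0.14 SE, edgeR adjusted p = 0.000253). In HPV+ cells IRF1 had 11.4 and 10.5 CPM in the clone, against 9.79 and 8.84 CPM in the parent, and the changes differed by log2 -1.06 ± 0.20 SE (edgeR adjusted p = 0.00568). Without replicate 1 of the HPV+ parental cells that difference was -0.95, short of the fold asked for. JAK1, the kinase shared by interferon receptors, was 2.16-fold higher in the HPV+ clone (edgeR adjusted p = 0.00437), and without replicate 1 of the HPV+ parental cells the adjusted p was 0.0587. Between the parents, IRF1, RELA and STAT2 were among those called lower in HPV+ cells and TYK2 higher, the last not with the length offset (log2 0.94).

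**Figure D4:**
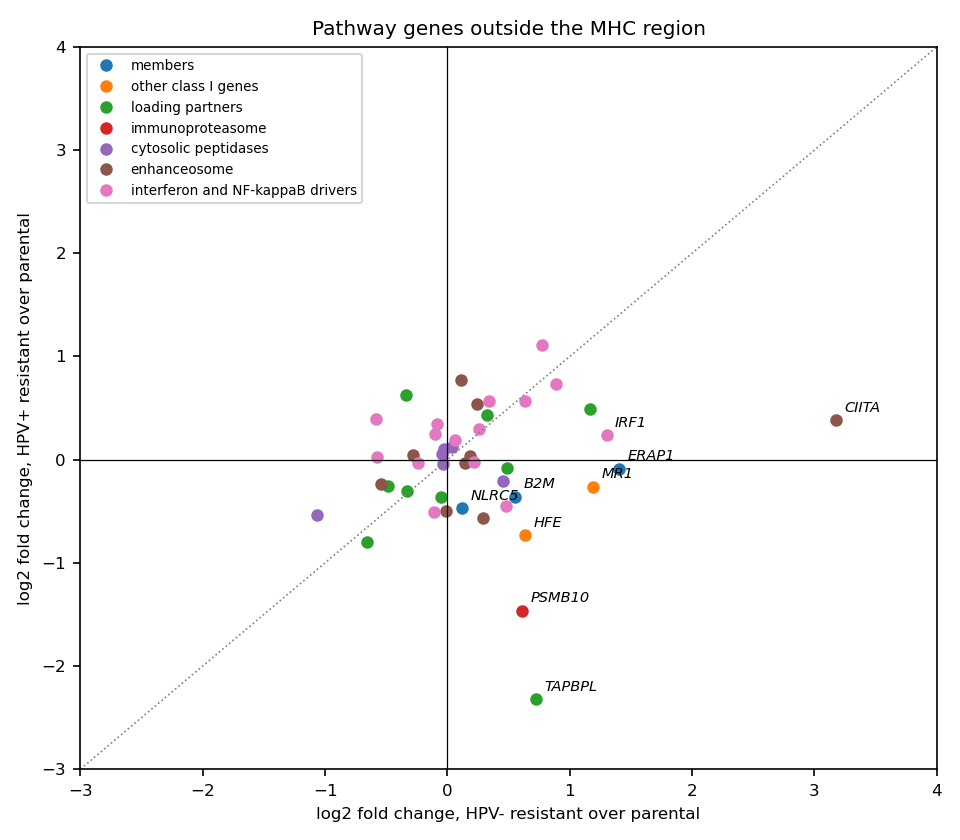
Log2 fold change in the HPV+ clone (vertical) against that in the HPV- clone (horizontal) for tested pathway genes outside the MHC region, coloured by list, with a dotted line where both are equal. CIITA (3.18), ERAP1 (1.41), IRF1 (1.30) and MR1 (1.19) lie to the right with HPV+ changes between -0.26 and 0.38, and TAPBPL (-2.32) and PSMB10 (-1.47) lie low.

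Promoters of 7 of the 9 genes are in the RefSeq table (GRCh38.p14), which lacks HLA-E and NLRC5. The window runs from 250 bases before to 50 bases after the start. Printed here are the 250 bases before the start for the 3 genes called in the HPV- clone and for B2M, each read along the strand of the gene, with motif matches in capitals.
ERAP1: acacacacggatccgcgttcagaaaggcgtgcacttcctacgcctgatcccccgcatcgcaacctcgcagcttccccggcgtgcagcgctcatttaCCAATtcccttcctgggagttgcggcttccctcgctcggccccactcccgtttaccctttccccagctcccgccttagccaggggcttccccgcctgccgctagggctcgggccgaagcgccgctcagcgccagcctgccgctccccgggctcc
TAPBP: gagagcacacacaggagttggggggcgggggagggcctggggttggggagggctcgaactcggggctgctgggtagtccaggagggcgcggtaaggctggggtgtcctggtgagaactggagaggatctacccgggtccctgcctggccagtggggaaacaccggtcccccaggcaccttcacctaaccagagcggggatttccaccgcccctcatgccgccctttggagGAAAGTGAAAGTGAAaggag
HLA-B: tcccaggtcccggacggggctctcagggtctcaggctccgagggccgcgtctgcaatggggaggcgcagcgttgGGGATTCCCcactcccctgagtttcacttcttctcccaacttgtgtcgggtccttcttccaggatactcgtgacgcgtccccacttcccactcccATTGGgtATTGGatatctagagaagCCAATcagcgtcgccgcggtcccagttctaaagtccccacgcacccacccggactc
B2M: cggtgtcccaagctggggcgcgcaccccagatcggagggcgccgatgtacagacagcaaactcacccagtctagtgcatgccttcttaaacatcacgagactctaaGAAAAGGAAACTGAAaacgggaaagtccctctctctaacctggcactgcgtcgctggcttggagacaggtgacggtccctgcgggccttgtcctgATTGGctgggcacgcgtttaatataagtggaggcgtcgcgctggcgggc
They lie at chr5:96807946-96808195 (ERAP1, minus strand), chr6:33314079-33314328 (TAPBP, minus strand), chr6:31357180-31357429 (HLA-B, minus strand) and chr15:44711267-44711516 (B2M, plus strand). Matches were sought on both strands. The core of the interferon-stimulated response element, GAAANNGAA, which IRF factors bind, was present in B2M, TAP1, TAP2, TAPBP and ERAP1. That is in 5 of 7 genes, and in 8.11% of all 35116 promoters. These 2 shares are not alike, since TAP1 and ERAP1 have 2 promoters each in the table. Only this spelling was sought, so a gene without a match is not shown to lack such an element. In B2M and TAPBP (as in TAP1) 2 cores overlapped, and in ERAP1 the match began 3 bases past the start, outside the printed stretch. HLA-B held the enhancer A core GGGATTCCC, a site of NF-kappaB and seen in 0.384% of promoters, 176 bases before the start. The CCAAT box (CCAAT), which NFY binds, was in HLA-B, HLA-C, B2M, TAP1 and ERAP1 and in 34.6% of promoters. The gamma-activated sequence TTCNNNGAA was in another promoter of TAP1 and in 7.66% of promoters, and TGACGTCA was in none of the 7 and in 1.85%. These are letters found in a window and not sites shown to be used.

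Across the 8 libraries the protein-coding genes most like NLRC5 in log2 CPM were SLC10A3, OLFML2A, BEX3, GSN and PC, with Pearson's r between 0.995 and 0.997 among 12656 genes compared. Those most like HLA-B were SLC1A3, TSPAN9, GBP4, CCNDBP1 and METTL7A, with r between 0.994 and 0.996. The 8 libraries come in pairs from 4 groups of 2 lines and are not independent points, so these values are a description.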

How the data were processed

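PolyA RNA of 8 libraries was sequenced as 150 bp paired-end reads. Using Salmon and GRCh38, the authors deposited estimated counts (read pairs per transcript, not scaled) and TPM, with transcript lengths. For Salmon's version and its transcript set, the sources used here give nothing. Of 187432 transcripts, 172550 were matched to GENCODE release 44 by ID without version, and 14882 were left out. Estimated counts were summed per gene and rounded. The 20250246 to 27341284 read pairs per library set the precision, which is low for genes of few counts.

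All 8 libraries entered 1 edgeR 4.0.16 fit (R 4.3.3, limma 3.58.1) that had a coefficient for each group. Library sizes were scaled by TMM, genes were filtered by filterByExpr, and the quasi-likelihood test was run in its robust form after being tested on simulated data. Benjamini-Hochberg adjustment ran over the 15221 genes tested. CPM are on TMM-scaled library sizes. Log2 CPM used a prior count of 2. The SE of a log2 fold change is its size divided by the square root of the F statistic. Alternatives were DESeq2 1.42.0, other factors, filters and fits, an offset for transcript length, a replicate block and each library left out. Keeping unmatched transcripts and leaving out other MHC region genes were added after the data were seen. Copies on alternate haplotypes were found with minimap2 2.31-r1302, and Python 3.11.15 (matplotlib 3.10.9, numpy 2.4.6, pandas 2.3.3) made the figures.

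The 9 genes, the lists and the rules were chosen with earlier results of these data known. All 9 genes are named, with up to 3 called genes per direction of each pathway list by smallest p, and the 5 genes most like NLRC5 and HLA-B, leaving out Y-linked genes and XIST. Not all of the listed genes that qualify are printed. Counting limits for a 0 use 3 counts and cover counting error only.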

Additional observations from a re-analysis of the deposited data

Results flagged for a closer look

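The changes in the HPV+ and HPV- clones differed by the test of the difference itself (HPV+ minus HPV-, log2) for ERAP1 (-1.49), HLA-B (-3.19) and TAPBP (-2.84). They also differed for MR1 (-1.46), TAPBPL (-3.05), CIITA (-2.80), HFE (-1.36), IRF1 (-1.06) and PSMB10 (-2.08). HLA-B and TAPBP rest on few HPV+ counts in the MHC region.

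Transcripts that match no gene of the annotation, which enter no comparison above, held reads in every library, at 4.33% of read pairs in the lowest and 5.13% in the highest.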

How the results depend on the processing

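Of 621 values of the 7 tested genes under the alternatives, 606 kept their direction and their side of the threshold. A further 10 passed the threshold newly, none lost it and 5 changed sign. TAP2 was left out for the HPV+ comparison and for the difference of the changes. The setting without a minimum fold used the main fit, so only the call could change there. The sign changes were all in genes not called. In the HPV- comparison B2M ran from 0.25 to 0.83, NLRC5 from -0.019 to 0.23 and TAP1 from -0.12 to 0.50 when a library was left out, and NLRC5 and TAP1 were below 0 without replicate 2 of the HPV- parental cells or replicate 2 of the HPV- resistant cells. In the HPV+ comparison ERAP1 was 0.15 with the offset for transcript length. The number of the 9 genes called in the HPV+ comparison was 1 with DESeq2 and with the length offset, and 0 to 1 when a library was left out. In the difference of the changes it was 3 to 5 when a library was left out. The log2 ratio of mean TPM was 0.62 for NLRC5 in the HPV- comparison, and 0.22 for ERAP1 and -0.33 for TAP1 in the HPV+ comparison. On the strand of the gene alone, 3 members held the interferon-stimulated response element core and 3 the CCAAT box. The cause of these shifts was not tested.

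Upper-quartile factors moved the median of all genes in the HPV- comparison to 0.12 and the calls to 1101 higher and 666 lower, against 923 and 795. Of 801 values of pathway genes, 774 kept their call and 27 lost it. Replicate numbers did not pair the samples, with correlations of deviations of -0.07, -0.015, 0.14 and 0.02, and the fit with the replicate block changed none of 33 calls (847 higher and 769 lower genes in the HPV- comparison, 461 and 662 in the HPV+ comparison). Low counts in the MHC region and 2 libraries per group limit these comparisons.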
